A study of Mus musculus with 6 samples.

Results

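The genes described here encode the proteasome, its activators and inhibitor, and the chaperones that assemble it, in gastrocnemius, a hindlimb muscle of the mouse. They were taken by symbol, as every gene of the Psma, Psmb, Psmc, Psmd, Psme, Psmf and Psmg families with a number after the family name, without the immunoproteasome subunits Psmb8, Psmb9 and Psmb10. This gave 45 genes of the 49315 in the deposited tables. RNA from whole muscle was sequenced in 3 libraries labelled mKO, a muscle-specific knockout of Hnrnpu, and in 3 libraries labelled WT. All mice were 3 months old and of a mixed C57BL/6 129 background. Hnrnpu encodes a nuclear protein that binds RNA and chromatin. The sources used here do not give the promoter that drives the Cre recombinase, the exons deleted or the sex of the mice. The labels do not say whether each library came from a separate mouse, so the spread between libraries may in part be technical.

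The proteasome degrades proteins that carry ubiquitin chains. Its core particle is a barrel of alpha rings, which gate the entry, and beta rings, of which the subunits Psmb5, Psmb6 and Psmb7 cut peptide bonds. A regulatory particle caps the barrel: the ATPases and scaffold subunits of its base unfold the substrate, and the lid holds the enzyme that removes ubiquitin. Other caps open the gate without ATP, and dedicated chaperones put the rings and the base together. In muscle the proteasome is known as a main route of breakdown of contractile proteins during atrophy, and transcription of its subunit genes is known to be raised together by the factor Nfe2l1 when proteasome activity is short.

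Libraries held between 32108684 and 42344238 counts. Levels are given as CPM, counts of a gene per 1000000 counts of its library, with library sizes corrected by edgeR's TMM factors, which were 1.15 to 1.20 in mKO libraries and 0.845 to 0.859 in WT libraries. With unscaled library totals the median over all tested genes shifted by 0.47 on the log2 scale toward mKO, so each direction below is relative to the bulk of genes. Hnrnpu had 209, 210.4 and 205 CPM in mKO libraries, against 233, 235 and 247 CPM in WT libraries, a log2 fold change of -0.20 (SE 0.10, adjusted p = 0.147) that turned to 0.27 (adjusted p = 0.0402) with library totals. Reads of the whole gene were summed, and with the deleted exons unknown and the gene kept in other cells of the muscle, this value is no check of the labels. All 10 muscle fibre markers were tested: 8 fell and none rose, and their summed level was 177452 to 208700 CPM in mKO libraries and 294938 to 315248 CPM in WT libraries. In whole muscle, fewer cells of a type and less RNA per cell cannot be told apart.

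The proteasome genes moved in both directions and mostly by little. Of the 45 genes, 43 passed the filter on low counts, and of these 5 rose and 6 fell in mKO muscle at an adjusted p of 0.05, while 32 did not pass the test. The share that passed was 25.6%, against 37.0% of the 16650 genes tested in all, of which 18.2% rose and 18.9% fell. The genes that rose were Psmd11, Psmf1, Psmc1, Psme3 and Psmd13. The genes that fell were Psme1, Psma3, Psmb7, Psmc3, Psmg2 and Psme2. The median log2 fold change of the 43 genes was -0.05, against 0.02 over all genes tested. A log2 fold change between -0.5 and 0.5 was found for 38 of the 43 proteasome genes (88.4%) and for 59.2% of all genes tested. The values of the 3 mKO and the 3 WT libraries did not overlap for 18 proteasome genes (41.9%), 7 higher and 11 lower, where the share over all genes was 49.3%. With library totals 28 of the 43 genes were called higher and 1 lower, at a background of 49.0% higher and 6.75% lower, and their median was 0.42 against 0.49 over all genes. Of the 32 genes not called under TMM scaling, 23 were called higher with library totals. For 15 of these the log2 fold change was above 0 in both fits, namely Psma1, Psma2, Psma6, Psmb5, Psmc2, Psmc4, Psmc5, Psmc6, Psmd2, Psmd4, Psmd7, Psmd9, Psmd10, Psmd12 and Psmd14. For the other 8, Psmb1, Psmb2, Psmb3, Psmb4, Psmd3, Psmd5, Psmd6 and Psmd8, it was below 0 under TMM scaling. "Not called" below refers to TMM scaling.

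**Figure D1:**
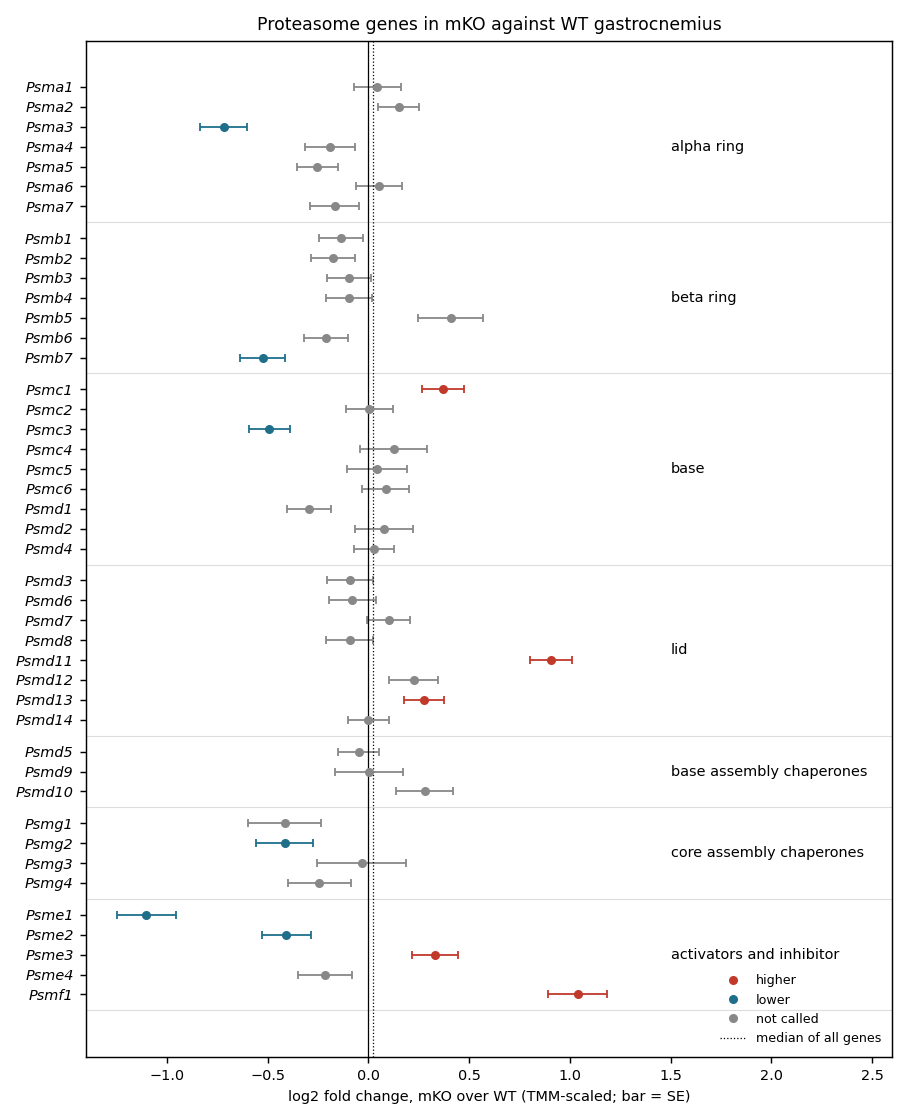
Log2 fold change (mKO over WT, TMM-scaled) of the 43 proteasome genes tested, by role, with the standard error as a bar and the median of all genes as a dotted line. Most points lie between -0.5 and 0.5, with Psmf1 and Psmd11 farthest to the right and Psme1 and Psma3 farthest to the left. With library totals the whole plot shifts right by about 0.47, and most points left of 0 pass it. Of the genes called lower, Psme2 and Psmg2 pass 0 and lose their call, and Psma3, Psmb7 and Psmc3 lose their call too.

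Promoter windows of 300 bases, from 250 before to 50 after the start site, were taken from RefSeq (GRCm38.p6) and were found for 37 of the 45 genes. They are shown for the subunit that rose most (Psmd11), for the activator that fell most (Psme1) and for Psmb5, a catalytic subunit whose promoter holds the core of the antioxidant response element, the site that Nfe2l1 and Nfe2l2 bind. Capitals mark a motif, and each sequence runs 5′ to 3′ on the strand of its gene.
Psmd11, chr11:80428365-80428664, plus strand, no motif found: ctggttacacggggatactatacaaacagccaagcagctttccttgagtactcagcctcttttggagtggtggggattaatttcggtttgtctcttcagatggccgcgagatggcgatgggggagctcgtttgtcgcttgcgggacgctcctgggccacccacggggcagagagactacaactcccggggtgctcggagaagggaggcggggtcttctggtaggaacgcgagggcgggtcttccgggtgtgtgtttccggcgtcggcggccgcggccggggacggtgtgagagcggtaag
Psmb5, chr14:54617946-54618245, minus strand, antioxidant response element core in capitals at position -47: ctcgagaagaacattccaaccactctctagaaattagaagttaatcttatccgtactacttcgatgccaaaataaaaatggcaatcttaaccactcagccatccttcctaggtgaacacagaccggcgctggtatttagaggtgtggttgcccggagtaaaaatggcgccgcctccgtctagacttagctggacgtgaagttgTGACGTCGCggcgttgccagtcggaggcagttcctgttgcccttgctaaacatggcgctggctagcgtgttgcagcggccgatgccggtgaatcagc
Psme1, chr14:55578244-55578543, plus strand, reverse complement of the interferon-stimulated response element core in capitals: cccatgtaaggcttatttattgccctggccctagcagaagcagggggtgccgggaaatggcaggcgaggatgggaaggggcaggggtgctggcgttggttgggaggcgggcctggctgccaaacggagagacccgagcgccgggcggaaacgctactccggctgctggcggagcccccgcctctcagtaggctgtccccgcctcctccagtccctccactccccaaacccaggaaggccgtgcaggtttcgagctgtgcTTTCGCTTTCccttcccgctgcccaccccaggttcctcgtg
The antioxidant response element core was searched as TGACNNNGC on both strands. It was present in 6 of the 37 genes (16.2%), namely Psmb5, Psmb6, Psmc6, Psmd12, Psmd9 and Psme4, and in 14.0% of all 27025 genes with a window of the same length. None of these 6 genes passed the test of mKO against WT under TMM scaling, where 25.6% of the proteasome genes and 37.0% of all genes tested did. With library totals Psmb5, Psmc6, Psmd12 and Psmd9 were called higher, as were 49.0% of all genes tested. The CCAAT box, searched as CCAAT on both strands, was present in 13 of the 37 genes (35.1%) and in 41.1% of all genes with a window. A pair of motifs was added after the data had been seen. The interferon-stimulated response element core, a GAAA followed after any 2 bases by another GAAA, on both strands, was present in 5 genes (13.5%; Psmb3, Psmd4, Psmd9, Psmg4 and Psme1) and in 3.99% of all genes with a window. The core of the composite element bound by the stress factor ATF4, TGATGNAA on both strands, was present in Psmd13 alone (2.70%) and in 4.51% of all genes with a window. A match is a description of these letters and not a site shown to be bound.

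The largest change in a structural subunit was in the lid. Psmd11 (ENSMUSG00000017428, chr11:80428615-80473248) encodes a scaffold subunit at the contact of the lid with the base and the core, and raising it is known to increase proteasome assembly in human stem cells. It had 110.1, 112 and 113 CPM in mKO libraries, against 62.6, 56.3 and 60.4 CPM in WT libraries. The mKO values stood far above the WT values and close together. The fitted rise was 1.87-fold (log2 0.90, SE 0.10, adjusted p = 3.29e-05), and it was called under each of 15 alternatives of processing other than library totals, and with library totals too (log2 1.37). Psmd11 has a pair of near-identical copies elsewhere, A730017L22Rik and Gm14048. Adding their counts to those of Psmd11 left a log2 fold change of 0.87.

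Psmd13 (ENSMUSG00000025487, chr7:140881968-140898643), a structural subunit of the lid, had 95.9, 96.5 and 97.8 CPM in mKO libraries and 80.00, 77.99 and 81.5 CPM in WT libraries. The groups did not overlap, yet the rise was small, 1.21-fold (log2 0.28, SE 0.10, adjusted p = 0.0455). It lost its call under 8 of the 15 alternatives, among them the omission of any library (adjusted p 0.0677 to 0.135). Its listed exons share 342 bases (10.1%) with Sirt3, and without strand the reads there cannot be assigned. The other 6 lid genes did not pass the test, and their log2 fold changes lay between -0.09 and 0.22. Among them, Psmd14, the deubiquitinase itself, averaged 75.7 ± 1.01 CPM in mKO libraries and 75.7 ± 4.62 CPM in WT libraries (SD, n = 3 each). Psmd12, another structural lid subunit, had 88.8, 95.3 and 94.8 CPM in mKO libraries and 70.9, 91.9 and 75.97 CPM in WT libraries, with overlap (log2 0.22, adjusted p = 0.162), and was called without WT replicate 2 (adjusted p = 0.0264) and with library totals (log2 0.69, adjusted p = 0.000394).

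In the base, 1 ATPase rose and another fell. Psmc1 (ENSMUSG00000021178, chr12:100110186-100123364), an ATPase whose tail docks into the core to open its gate, had 184, 196 and 183 CPM in mKO libraries and 143, 137 and 156 CPM in WT libraries. All mKO values lay above all WT values, by 1.29-fold (log2 0.37, SE 0.11, adjusted p = 0.0156). Without WT replicate 1 the adjusted p of Psmc1 was 0.0540.

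Psmc3 (ENSMUSG00000002102, chr2:91054009-91066369), another ATPase with a docking tail, had 211, 199.7 and 202 CPM in mKO libraries and 282, 286 and 293 CPM in WT libraries. It was 1.41-fold lower in mKO muscle (log2 -0.49, SE 0.10, adjusted p = 0.00221), with no overlap. It was called under each of the 15 alternatives but not with library totals (log2 -0.03). Psmc1 and Psmc3 are parts of the same ring of ATPases, and under TMM scaling they moved in opposite directions. Psmd1, a scaffold of the base, had 179.7, 204 and 195 CPM in mKO libraries and 227, 226 and 257 CPM in WT libraries. These values did not overlap, and the log2 fold change of -0.29 just missed the threshold (adjusted p = 0.0521); 4 alternatives called it lower, the fit without WT replicate 2 among them. The other 6 base genes were not called, with log2 fold changes between 0.01 and 0.13.

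The core particle had no gene called higher and 2 of 14 called lower (14.3%). Of all genes tested, 18.2% were called higher and 18.9% lower. In the alpha ring, Psma3 (ENSMUSG00000060073, chr12:70974621-70996347), a ring subunit that also binds some proteins degraded without ubiquitin, had 128, 114 and 111 CPM in mKO libraries, against 182, 181 and 216 CPM in WT libraries. Every mKO value was below every WT value. Psma3 was 1.64-fold lower (log2 -0.72, SE 0.12, adjusted p = 0.000437), under each of the 15 alternatives as well, but with library totals it missed the threshold (log2 -0.25, adjusted p = 0.0893). Near-identical copies of Psma3 each held at most 2.15% as many reads as the gene, and adding them left its log2 fold change at -0.73. The other 6 alpha genes were not called, with log2 fold changes between -0.25 (Psma5) and 0.15 (Psma2).

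In the beta ring, Psmb7 (ENSMUSG00000026750, chr2:38588036-38644087), the subunit that cuts after basic residues, had 165, 145 and 153 CPM in mKO libraries and 221, 207 and 238 CPM in WT libraries. It was 1.44-fold lower in mKO muscle without overlap (log2 -0.53, SE 0.11, adjusted p = 0.00242), called under each of the 15 alternatives but not with library totals (log2 -0.06). Its listed exons share 405 bases (11.8%) with Nek6, a kinase gene whose own level fell (log2 -1.33), and the part of shared reads in the result was not tested.

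Psmb5 (ENSMUSG00000022193, chr14:54614120-54617995), the subunit that cuts after hydrophobic residues, went the other way without passing the test. It had 80.9, 64.9 and 87.7 CPM in mKO libraries and 73.2, 55.6 and 47.2 CPM in WT libraries, with overlap (log2 0.41, SE 0.16, adjusted p = 0.0648). It was called higher under 5 of the 15 alternatives, among them DESeq2 (adjusted p = 0.0469) and the fits without WT replicate 1 (0.0108) and without mKO replicate 2 (0.0311), and with library totals (log2 0.87, adjusted p = 0.000752). A copy of Psmb5 on chromosome 7, Gm3375, is 98.9% identical over 796 bases and had reads assigned to it, and whether these came from Psmb5 was not tested. Its share of the counts of both genes was 10.6%, 12.7% and 1.07% in mKO libraries and 12.3%, 22.8% and 27.8% in WT libraries. The sum of both genes was 90.5, 74.4 and 88.7 CPM in mKO libraries and 83.4, 72.1 and 65.4 CPM in WT libraries, and its log2 fold change was 0.20 (adjusted p = 0.237). Psmb6, the subunit that cuts after acidic residues, had 205, 175 and 189 CPM in mKO libraries and 232, 214 and 212 CPM in WT libraries. These groups did not overlap, and the difference was not called (log2 -0.21, adjusted p = 0.153). The structural beta subunits Psmb1, Psmb2, Psmb3 and Psmb4 were not called either, with log2 fold changes of -0.17 to -0.10 that turned to 0.29 to 0.37 with library totals.

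**Figure D2:**
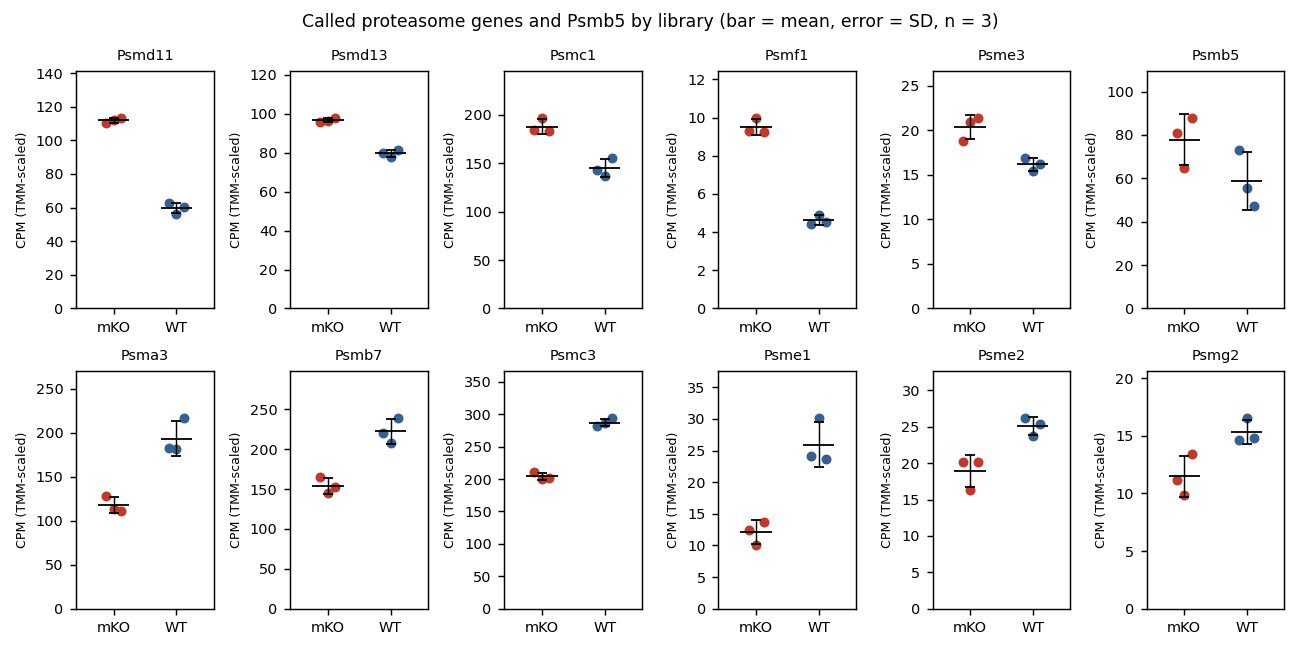
CPM (TMM-scaled) in each library of the 11 genes called and of Psmb5, mKO on the left and WT on the right of each panel, with the mean and SD (n = 3). The points of the 2 groups are apart in every panel but that of Psmb5; with library totals the falls of Psma3, Psmb7, Psmc3, Psme2 and Psmg2 are not called, and those of Psme2 and Psmg2 turn into values just above 0.

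Shares within a library do not depend on how libraries are scaled. Of the summed counts per kilobase of the alpha ring, Psma3 made up 6.95%, 6.94% and 6.31% in mKO libraries and 10.2%, 10.3% and 11.4% in WT libraries. Psmb7 made up 8.91 ± 0.0930% of the beta ring in mKO libraries and 11.9 ± 0.951% in WT libraries (SD, n = 3 each), while Psmb5 made up 17.6 ± 2.03% in mKO libraries and 12.3 ± 2.33% in WT libraries. Reads assigned to Gm3375 do not enter the share of Psmb5. In the base, Psmc1 made up 22.8 ± 0.702% in mKO libraries and 17.7 ± 0.749% in WT libraries, and Psmc3 made up 14.4 ± 0.583% in mKO libraries and 20.4 ± 0.170% in WT libraries. In the lid, Psmd11 made up 5.18%, 5.23% and 5.36% in mKO libraries and 3.07%, 2.86% and 2.73% in WT libraries, and Psmd13 made up 8.59 ± 0.140% in mKO libraries and 7.28 ± 0.289% in WT libraries. In all 7 of these shares the 2 groups did not overlap. The genes other than Psmb5 were taken because they were called above, and Psmb5 was picked after its values were seen. The separation of these shares is therefore no separate support for a change. With 3 libraries against 3, the exact two-sided permutation test of a share cannot give a p under 0.1.

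**Figure D3:**
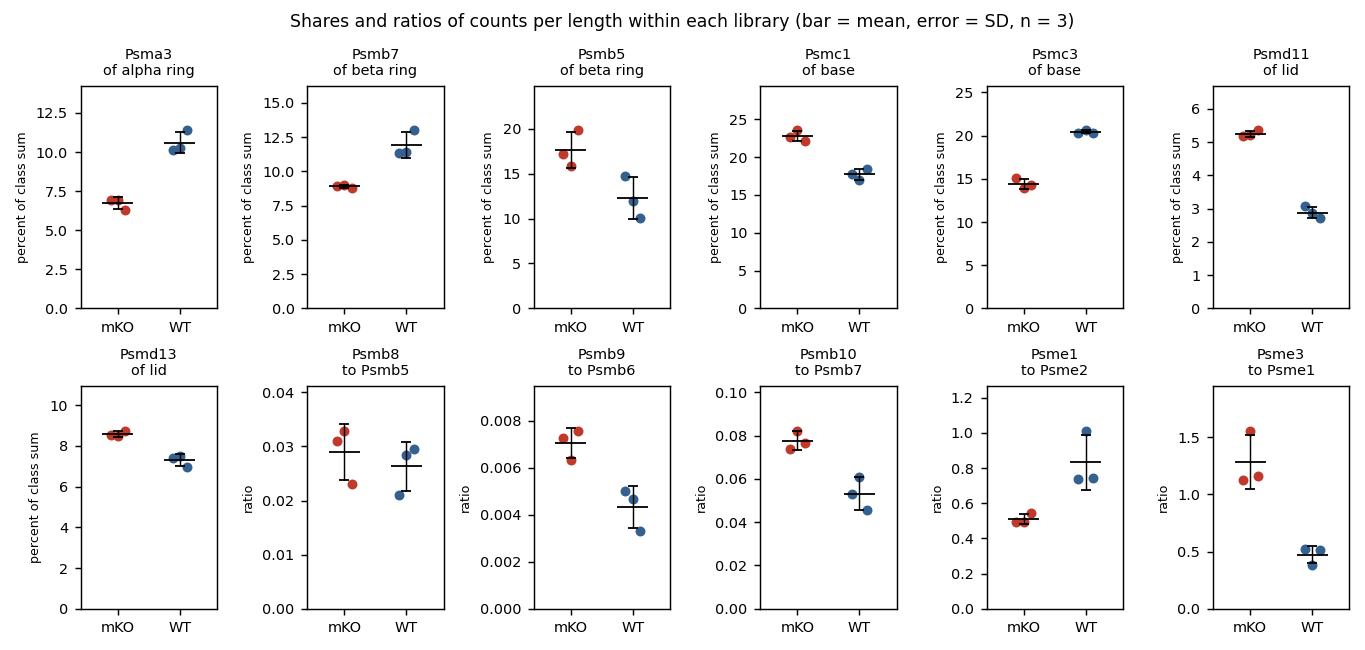
Shares of the counts per kilobase of a ring or complex (percent) and ratios of counts per kilobase between 2 genes, computed within each library, mKO left and WT right, with the mean and SD (n = 3). The groups are apart in every panel except the ratio of Psmb8 to Psmb5, and library scaling does not enter these values. The genes of the shares were picked as called or, for Psmb5, after its values were seen, so their panels are no separate support. The same holds for the ratio of Psme3 to Psme1, genes called in opposite directions. Ratios of Psme1 to Psme2 and of Psmb10 to Psmb7 also hold genes called above, so they are no separate support either.

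Of the 5 genes for activators and the inhibitor, 2 rose and 2 fell, at a background of 18.2% rising and 18.9% falling among all genes tested. Psme1 and Psme2 encode the alternating subunits of the PA28 ring, a cap that is induced by interferon and favours peptides for antigen presentation. Their genes lie 5911 bases apart on chromosome 14. Psme1 (ENSMUSG00000022216, chr14:55578123-55581529) had 12.5, 10.1 and 13.7 CPM in mKO libraries, against 24.1, 30.1 and 23.7 CPM in WT libraries. It was 2.15-fold lower in mKO muscle (log2 -1.10, SE 0.15, adjusted p = 0.000103), with the groups far apart, and it was the 1 proteasome gene called lower with library totals (log2 -0.64, adjusted p = 0.00291).

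Psme2 (ENSMUSG00000079197, chr14:55587441-55591113) had 20.1, 16.3 and 20.2 CPM in mKO libraries and 26.1, 23.7 and 25.4 CPM in WT libraries. The fall was smaller, 1.33-fold (log2 -0.41, SE 0.12, adjusted p = 0.0187), was not called without WT replicate 1 (adjusted p = 0.0556) or without mKO replicate 2 (0.0921), and turned to 0.06 with library totals. The ratio of Psme1 to Psme2 in counts per kilobase was 0.496, 0.491 and 0.543 in mKO libraries and 0.736, 1.01 and 0.746 in WT libraries, without overlap. Both genes had been called lower, so this ratio is no separate support for either fall. A near-identical copy of Psme2, Psme2b, held 4.79% to 7.73% of the counts of both genes in mKO libraries and 5.39% to 5.72% in WT libraries.

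Psme3 (ENSMUSG00000078652, chr11:101316213-101323537) encodes the nuclear relative of PA28, a homomeric ring that interferon does not induce. It had 18.8, 20.9 and 21.4 CPM in mKO libraries and 16.9, 15.5 and 16.2 CPM in WT libraries, a rise of 1.26-fold (log2 0.33, SE 0.12, adjusted p = 0.0393). The groups did not overlap, but 8 of the 15 alternatives lost the call, DESeq2 (adjusted p = 0.0553) and the omission of each library but mKO replicate 1 among them. The ratio of Psme3 to Psme1 was 1.12, 1.56 and 1.16 in mKO libraries and 0.525, 0.385 and 0.512 in WT libraries. The groups had to be apart in this ratio, since each of its genes was without overlap and they moved in opposite directions. The level of the ratio depends on the gene lengths used. With the principal transcript, Psme1 stood at 10.9 CPM per kilobase and Psme3 at 7.64 in mKO libraries, and at 23.3 and 6.07 in WT libraries.

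Psmf1 (ENSMUSG00000032869, chr2:151715812-151744186) encodes PI31, which inhibits the core particle in vitro and in flies and mice is known as an adaptor for the transport of proteasomes along axons. It had 9.30, 9.97 and 9.26 CPM in mKO libraries, against 4.44, 4.91 and 4.53 CPM in WT libraries. The rise was 2.05-fold (log2 1.04, SE 0.15, adjusted p = 0.000155), the groups were far apart, and the call was made under each of the 15 alternatives and with library totals (adjusted p = 7.27e-06). Psme4, the large single-chain activator PA200, had the most reads of the 45 genes, with 689, 757 and 727 CPM in mKO libraries and 886, 682 and 953 CPM in WT libraries. The lowest WT library lay below all mKO libraries, and the difference was not called (log2 -0.21, adjusted p = 0.227), except without WT replicate 2 (log2 -0.35, adjusted p = 0.0192).

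The immunoproteasome subunits, which replace the catalytic subunits under interferon and are abundant in blood cells, were low in this muscle. Psmb8 had 7.87, 6.71 and 6.37 CPM in mKO libraries and 4.84, 4.97 and 4.36 CPM in WT libraries, a rise of 1.48-fold (log2 0.57, SE 0.16, adjusted p = 0.0161). Psmb9 averaged 2.63 ± 0.396 CPM in mKO libraries and 1.87 ± 0.458 CPM in WT libraries (SD, n = 3 each; log2 0.50, adjusted p = 0.141). Psmb10 averaged 5.96 ± 0.101 CPM in mKO libraries and 5.85 ± 0.429 CPM in WT libraries (log2 0.03, adjusted p = 0.912). Per kilobase, Psmb9 stood at 0.00707 of Psmb6 in mKO libraries and 0.00433 in WT libraries, and Psmb10 at 0.0776 of Psmb7 in mKO libraries and 0.0532 in WT libraries, both without overlap. Psmb7 was called lower above (log2 -0.53), while Psmb10 was not called. The separation of their ratio is therefore no separate support for a change in Psmb10. The limit given above for exons that Psmb7 shares with Nek6 applies to this ratio too. The ratio of Psmb8 to Psmb5 was 0.0290 in mKO libraries and 0.0263 in WT libraries, with overlap. All 10 macrophage markers rose in mKO muscle, with a summed level of 569 to 947 CPM in mKO libraries and 260.3 to 321 CPM in WT libraries. None of the 5 T cell markers passed the filter on low counts, and their summed level was 0.0898 to 0.486 CPM in mKO libraries and 0.0559 to 0.123 CPM in WT libraries. All 5 endothelial markers fell, with summed levels of 137 to 148 CPM in mKO libraries and 209.6 to 285 CPM in WT libraries. All 5 proliferation markers rose, as did 2 of 5 fibro-adipogenic markers; of 4 satellite cell markers 1 rose and 1 fell, and no marker of adipocytes or Schwann cells was called. With library totals 1 of the 5 endothelial markers was called lower and none higher. The same scaling called 7 muscle fibre markers lower, and it called higher all 10 macrophage, all 5 proliferation, 4 fibro-adipogenic and 2 satellite cell markers as well as all 3 immunoproteasome genes. The part of these cell types in the values of Psme1, Psme2 and Psmb8 was not tested.

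Of the 7 chaperone genes, 1 fell and none rose, where 18.9% of all genes tested fell and 18.2% rose. Psmg1 and Psmg2 encode the partners of a dimer that starts the alpha ring. Psmg2 (ENSMUSG00000024537) had 11.2, 9.90 and 13.4 CPM in mKO libraries and 14.6, 16.5 and 14.8 CPM in WT libraries. It was 1.33-fold lower without overlap (log2 -0.41, SE 0.14, adjusted p = 0.0353), lost its call under 6 of the 15 alternatives, the fits without WT replicate 2, WT replicate 3, mKO replicate 1 and mKO replicate 2 among them, and turned to 0.05 with library totals. Psmg1 had 6.10, 6.22 and 7.07 CPM in mKO libraries and 10.7, 6.68 and 8.48 CPM in WT libraries, with overlap. Its log2 fold change, -0.42 (SE 0.18, adjusted p = 0.0913), was as large as that of its partner but less certain, and it was called without WT replicate 2 (adjusted p = 0.0190). The other dimer, of Psmg3 and Psmg4, was not called (log2 -0.03 and -0.24). The base chaperones Psmd5, Psmd9 and Psmd10 were not called, with log2 fold changes of -0.05, 0.00 and 0.28. The summed level of the 4 core chaperone genes was 25.2 to 29.1 CPM in mKO libraries and 33.3 to 36.6 CPM in WT libraries, without overlap. This holds under TMM scaling only. With library totals the log2 fold changes of all 4 genes lay above 0, from 0.05 (Psmg1 and Psmg2) to 0.44 (Psmg3), and none was called.

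The 2 genes that did not pass the filter on low counts encode subunits of other tissues. Psma8, the alpha subunit of male germ cells, had 7, 8 and 3 counts in mKO libraries and 1, 1 and 4 counts in WT libraries. Psmb11, the beta subunit of the thymus, had 0 counts in every library. It lies 7314 bases from Psmb5, the gene it stands in for.

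The 3 complexes were also summed over their genes, without a test. The 14 core genes summed to 1598 ± 108 CPM in mKO libraries and 1804 ± 58.9 CPM in WT libraries (SD, n = 3 each), a ratio of 0.886 that turned to 1.22 with library totals. Every mKO sum of the core (1493 to 1709 CPM) lay below every WT sum (1737 to 1849 CPM). The 9 base genes summed to 1323 ± 17.97 CPM in mKO libraries and 1379 ± 27.9 CPM in WT libraries (ratio 0.959, 1.32 with library totals), and here too the mKO sums (1309 to 1343 CPM) lay below the WT sums (1360.3 to 1411 CPM). The 8 lid genes summed to 996 ± 6.17 CPM in mKO libraries and 943 ± 55.7 CPM in WT libraries (ratio 1.06, 1.46 with library totals), with overlap. Single genes weigh much in these sums. Means in mKO and WT libraries were 112 and 59.8 CPM for Psmd11, 204 and 287 for Psmc3, and 193 and 237 for Psmd1. They were 117 and 193 CPM for Psma3 and 154 and 222 for Psmb7. Under TMM scaling the median log2 fold change was -0.15 over the core, 0.04 over the base and 0.05 over the lid genes. Over all 45 genes, 0.581%, 0.552% and 0.550% of all counts were proteasome counts in mKO libraries, against 0.443%, 0.410% and 0.453% in WT libraries. This share was 1.29 times as high in mKO as in WT libraries. With library totals the median log2 fold change was 0.42 over the proteasome genes and 0.49 over all genes tested. The muscle fibre markers, which take many of the counts, were lower in mKO libraries by the sums given above, and their part in this share was not tested.

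Per kilobase of listed exons, subunits of the same particle differed in level much more than mKO differed from WT. Across the 31 core, base and lid genes the highest level was 23.7 times the lowest in mKO libraries and 23.8 times in WT libraries, from Psmd3 at 5.78 CPM per kilobase in mKO libraries and 6.16 in WT libraries to Psma2 at 137 in mKO libraries and Psmb1 at 146 in WT libraries. Psmd11 stood at 17.5 CPM per kilobase in mKO libraries and 9.36 in WT libraries, the level next above Psmd3 in the lid in both groups. The lid had the widest range, 19.2 times in both groups. The alpha ring had 4.54 times in mKO libraries and 3.31 times in WT libraries, and the beta ring 3.26 times in mKO libraries and 3.34 times in WT libraries. Psme4 stood at 86.4 CPM per kilobase in mKO libraries and 100.3 in WT libraries, far above Psme1, Psme2 and Psme3, which lay between 5.48 and 14.2 in both groups. Chaperones lay between 1.41 and 14.5. The order depends on the length used: with the principal transcript, Psmb6 was highest in both groups, and the span over core, base and lid was 17.8 times in mKO libraries and 19.3 times in WT libraries.

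**Figure D4:**
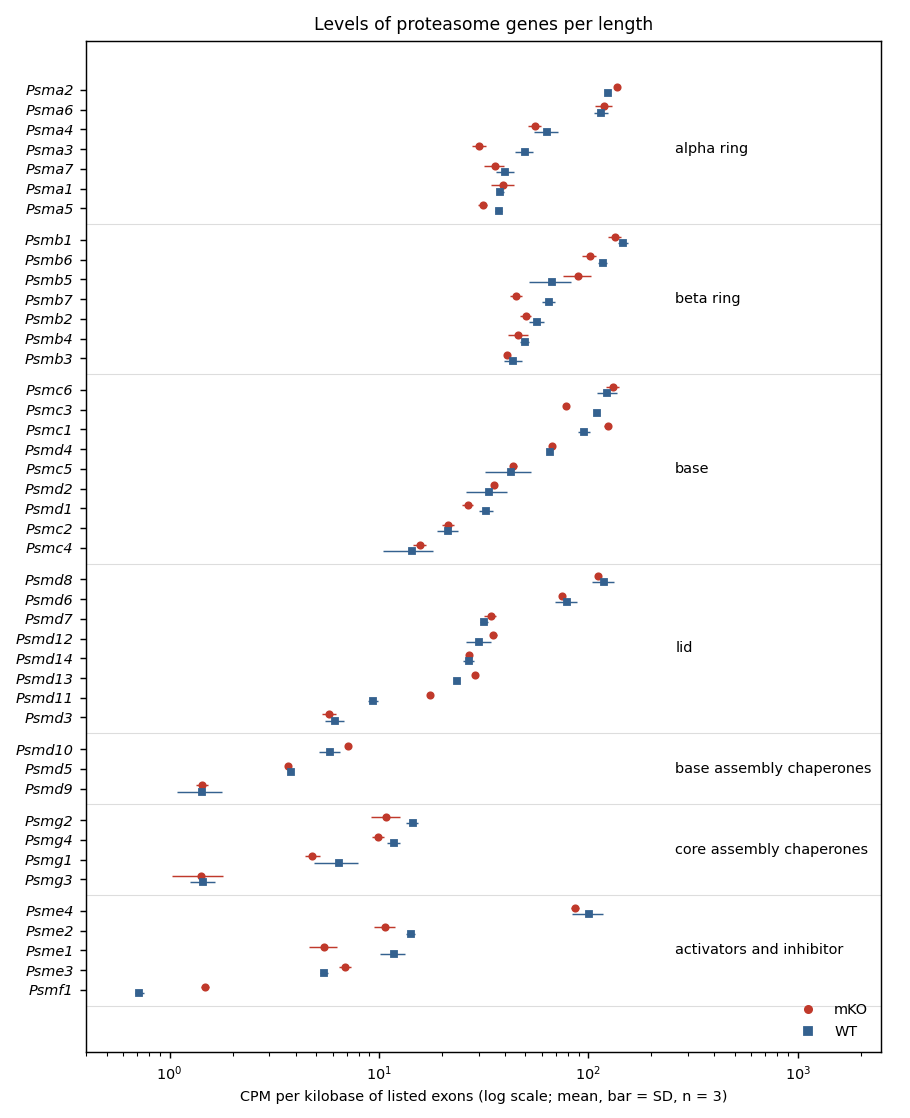
Level per length (CPM per kilobase of listed exons, log scale; mean and SD of 3 libraries) of the 43 proteasome genes tested, by role and ordered by level, mKO drawn above WT. The span within a complex, widest in the lid from Psmd3 to Psmd8, exceeds the distance between the mKO and WT points of any of its genes; library totals would move the mKO points right relative to WT.

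For the 32 genes not called, the 95% intervals of the log2 fold change ran from -0.81 at the lowest (Psmg1) to 0.76 at the highest (Psmb5). The interval lay inside -0.5 to 0.5 for 25 of them under TMM scaling.

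Of 12 genes that control the transcription of proteasome genes, 4 rose and 2 fell, at a background of 18.2% rising and 18.9% falling among all genes tested. Nfe2l2, the factor of the oxidative stress response, had 55.8, 59.5 and 54.1 CPM in mKO libraries and 26.1, 25.2 and 28.2 CPM in WT libraries, a rise of 2.13-fold (log2 1.09, SE 0.11, adjusted p = 8.26e-06). Nfe2l1, the factor known to induce proteasome subunits together, had 540.4, 634 and 552 CPM in mKO libraries and 378, 319 and 356 CPM in WT libraries, a rise of 1.64-fold (log2 0.71, SE 0.12, adjusted p = 0.000461). Mafk, a small Maf partner of both factors on DNA, rose 1.58-fold (log2 0.66, SE 0.11, adjusted p = 0.000449). Ngly1, the enzyme that strips sugar chains from Nfe2l1 on its way to activity, had 55.4, 59.5 and 53.1 CPM in mKO libraries and 87.9, 80.99 and 101 CPM in WT libraries, a fall of 1.61-fold (log2 -0.69, SE 0.12, adjusted p = 0.000594). Its fall was not called with library totals (log2 -0.22, adjusted p = 0.126). Transcript levels do not show the activity of these factors, which is set largely by cleavage and by protein turnover.

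Of 17 other genes for proteins that bind the proteasome, 5 rose and 3 fell, so that 8 of 17 were called against 37.0% of all genes tested. Ecpas, which holds core and regulatory particle together, had 372, 409.7 and 368 CPM in mKO libraries and 639, 598 and 700.1 CPM in WT libraries, a fall of 1.69-fold (log2 -0.75, SE 0.11, adjusted p = 0.000225) that was also called with library totals (log2 -0.29, adjusted p = 0.0420). Akirin2, the adaptor for import of proteasomes into the nucleus, had 19.6 to 23.3 CPM in mKO libraries and 13.03 to 14.1 CPM in WT libraries, a rise of 1.61-fold (log2 0.68, SE 0.12, adjusted p = 0.000759). Txnl1, a thioredoxin-like protein on the regulatory particle, rose 1.47-fold (adjusted p = 0.00203), and Zfand2a, a zinc finger protein of the arsenite response, rose 1.44-fold (adjusted p = 0.00817). Paaf1 was listed too and is not analysed here.

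Of 13 genes that supply ubiquitin or work with the p97 ATPase, 1 rose and 3 fell, so that 4 of 13 were called at the same background of 37.0%. Faf1, a cofactor that brings ubiquitinated proteins to p97, had 42.9, 37.7 and 42.8 CPM in mKO libraries and 87.2, 97.98 and 93.8 CPM in WT libraries, a fall of 2.26-fold (log2 -1.18, SE 0.11, adjusted p = 6.55e-06). Ube4b, an enzyme that lengthens ubiquitin chains, had 18.1, 24.3 and 18.4 CPM in mKO libraries and 14.6, 17.3 and 12.5 CPM in WT libraries, a rise of 1.37-fold (log2 0.45, SE 0.16, adjusted p = 0.0370). Uba6, an activating enzyme for ubiquitin, was 1.29-fold lower (adjusted p = 0.0312), and Ubxn1, another p97 cofactor, was lower too (log2 -0.32, adjusted p = 0.0415). The falls of Uba6 and Ubxn1 turned to 0.09 and 0.15 with library totals and were not called. With library totals the counts were 13 higher and 1 lower of the 17 proteasome-bound genes, 9 higher and 0 lower of the 12 control genes, and 9 higher and 1 lower of the 13 ubiquitin and p97 genes, at a background of 49.0% higher and 6.75% lower.

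**Figure D5:**
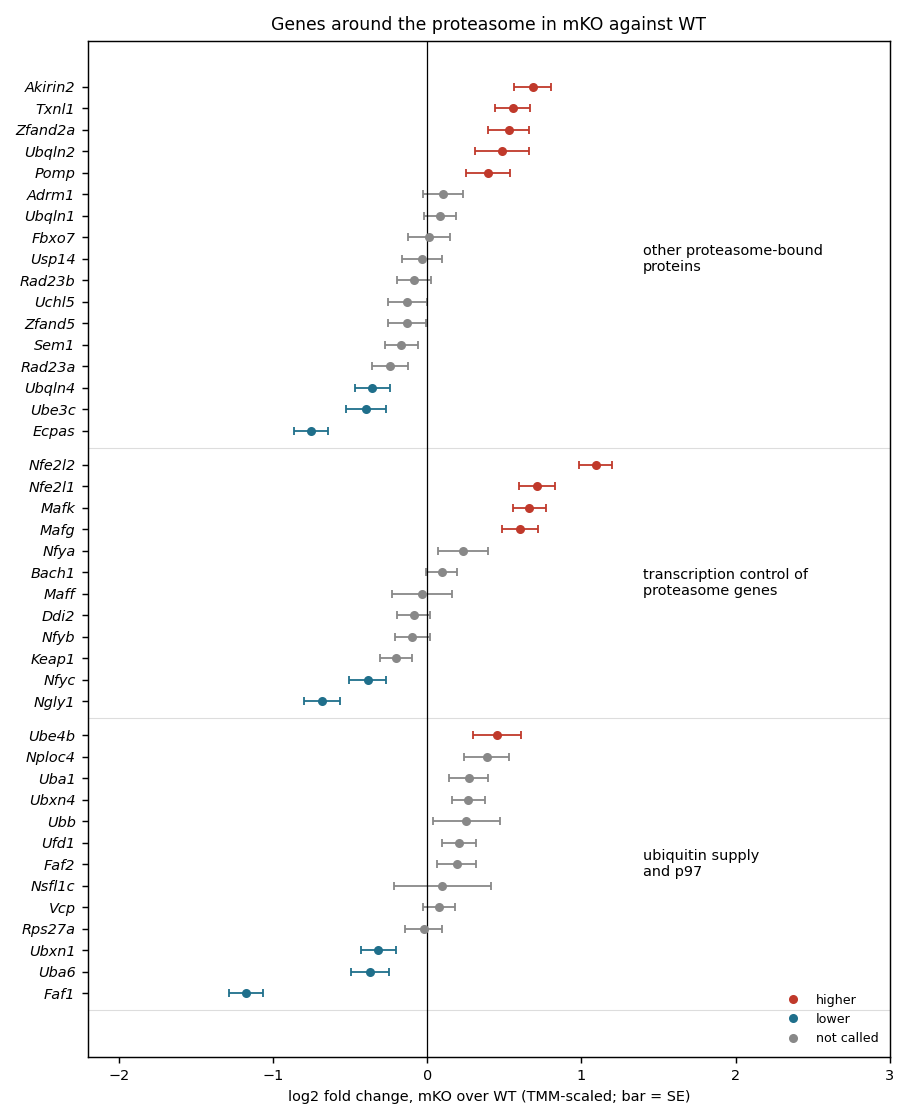
Log2 fold change (mKO over WT, TMM-scaled; bar = SE) of 42 tested genes of the 3 lists around the proteasome, ordered by value within each list. Nfe2l2 lies farthest to the right and Faf1 farthest to the left; with library totals 31 of the 42 are called higher, and of the genes called lower here only Ecpas and Faf1 stay so.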

How the data were processed

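Total RNA of frozen gastrocnemius was extracted with Trizol and made into libraries with a NEBNext Ultra kit, which as named does not mark strand, per the labels' protocols. The authors deposited whole-number counts by gene, in 1 table for each of 3 mKO and 3 WT libraries. Per the submitters' processing notes, the build was GRCm38 and the tools named include featureCounts (Subread 1.5.2), STAR (2.5.2b) and Trimmomatic (0.36). Per the file headers, exons were listed per Ensembl gene with their summed length in bases, which served as the length in CPM per kilobase. The sources used here give neither the strand setting nor the treatment of reads with several matches, so counts of genes with overlaps or near-identical copies are uncertain; 11 of the 45 proteasome genes share exon bases with another gene, 4 of them over 10% of their length. Near-identical copies were found with blastn 2.17.0 (at least 95% identity over 200 bases).

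Of 49315 genes, 48970 matched a symbol by identifier. Genes were tested with edgeR 4.0.16 in R 4.3.3 (quasi-likelihood test, TMM factors, default expression filter, group as the only term), with Benjamini-Hochberg adjustment over 16650 genes at 0.05. Every adjusted p comes from this test unless another tool is named. The biological coefficient of variation was 16.1%. Folds are mKO over WT, and "fold lower" is the inverse. Replicates differed beyond sampling noise (chi-square per degree of freedom 20.9 to 57.7). WT replicate 2 gave 50.6 with WT replicate 1 and 57.7 with WT replicate 3, which gave 24.5 with each other. The mKO pairs gave 20.9 to 50.8. Alternatives were DESeq2 1.42.0, limma 3.58.1 (voom), other scalings and filters, a replicate block and the omission of each library. Copies added to a gene, principal transcript lengths, sums under library totals and a pair of motifs were added after the data were seen. The steps were tested on simulated data in which few genes changed, as many up as down. The choice of scaling was not tested there.

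The members and gene lists were chosen with earlier results of these data known. Values per library are given by rule for the 2 lowest p of each class and direction among genes called, for every called activator, inhibitor and chaperone, and for the 3 largest falls; of the other lists, up to 4 called genes by lowest p are named. Another 2 genes of these lists are not reported here and enter no count of the lists. Uncalled proteasome genes given with values per library were picked after their values were seen.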

Additional observations from a re-analysis of the deposited data

How the results depend on the processing

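Of the proteasome genes called, Psmd11, Psmf1, Psme1, Psma3, Psmb7 and Psmc3 kept their call under each of 15 alternatives other than library totals. With library totals, 9283 genes were called in all, 8159 higher and 1124 lower, and 28 proteasome genes were higher and 1 lower, with a median log2 fold change of 0.42. The sign turned, with a call in 1 of the 2 fits, for Psmb1 (0.33), Psmb2 (0.29), Psmb3 (0.37), Psmb4 (0.37), Psmd3 (0.37), Psmd5 (0.42), Psmd6 (0.39), Psmd8 (0.37), Psme2 (0.0577) and Psmg2 (0.0501), and the sums over core, base and lid became 1.22, 1.32 and 1.46 times the WT sums; the cause was not tested. The sign also turned from below 0 to above 0 for 9 genes called in neither fit, namely Psma4, Psma5, Psma7, Psmb6, Psmd1, Psme4, Psmg1, Psmg3 and Psmg4. With upper-quartile factors the median of the proteasome genes was 0.0166. An adjusted p of 0.01 left 3973 genes, 1867 of them higher, and 2 proteasome genes higher.

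Leaving out each library in turn gave 4766 to 6255 genes called, 2350 to 3065 higher and 2416 to 3190 lower. Among proteasome genes it gave 3 to 4 higher and 4 to 8 lower, 3 higher without WT replicate 1, WT replicate 3 or mKO replicate 3, with a median of -0.09 to -0.01. The sum ratios ranged from 0.855 to 0.915 (core), 0.952 to 0.971 (base) and 1.03 to 1.09 (lid). With the replicate number as a block, 3 proteasome genes were called higher and 5 lower, and Psmd13, Psme3 and Psmg2 lost their call. Same-numbered mKO and WT libraries did not deviate together (correlations -0.01, -0.02 and 0.04), nothing in the labels pairs them, and not every library correlated best with its own number. Depth limits the lowest genes: Psmg3 had 528 counts over the mKO libraries and 413 over the WT libraries, and its 95% interval ran from -0.51 to 0.45.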
